A study of Mus musculus with 45 samples.

Results

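The 5 genes described here, Adh1, Lypd6b, Ggt5, Pdlim4 and Cnga1, were chosen from the 23420 genes of a count table because they were far higher in tumour effector T cells than in wild-type tumour regulatory T cells (Tregs). Each encodes a different kind of protein. Adh1 is a class I alcohol dehydrogenase, an enzyme that oxidises ethanol and retinol, and retinol oxidation is the step that precedes retinoic acid, a signal known to act on T cell homing and Treg induction. Lypd6b belongs to the Ly6/uPAR family of small, lipid-anchored surface proteins, and its human counterpart is known to modulate nicotinic acetylcholine receptors. Ggt5 is a surface gamma-glutamyl transferase that converts leukotriene C4 to leukotriene D4. Pdlim4 is a PDZ and LIM domain adaptor that binds alpha-actinin and the actin cytoskeleton. Cnga1 is the alpha subunit of the cGMP-gated cation channel of rod photoreceptors.

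RNA was sequenced from T cells sorted from mice carrying B16 melanoma, a transplantable mouse skin tumour. The groups were tumour effector T cells of WT mice, and Tregs of 4 genotype sets, each taken from tumour and from non-draining lymph node. These sets were N, HetNrp1def (the Nrp1-deficient Tregs in heterozygous animals), HetWT (the Nrp1-sufficient Tregs in such animals) and WT. Nrp1 encodes neuropilin-1, a surface receptor of Tregs. N and HetNrp1def carry the same genotype label, and the 2 sets were kept apart by their titles, while the design text names homozygous and heterozygous deficient mice. The sources used here do not give the Cre driver, the deleted exons or the age of the mice. Each group had 5 libraries. Those named ds1 and ds2 were read as the double-sorted ones, and those named 2, 3 and 4 as single-sorted, from the names and the numbers of each that the labels state. Within a group, 4 pairs of libraries had nearly the same counts: their chi-square per degree of freedom was 2.04 to 2.42, where 1 is counting noise alone, and that of other pairs within a group was at least 51.1. Each such pair was counted as 1 sample, under number 4, which left 41 samples, 4 in each HetNrp1def or HetWT group and 5 in the others. In the HetNrp1def and HetWT tumour groups the joined libraries were ds1 and 4, so one of the pair was labelled double-sorted and the other single-sorted. These joined samples were drawn and fitted with the single-sorted ones, although they hold reads of both kinds. Between groups the lowest chi-square per degree of freedom was 13.0, for the ds2 libraries of HetNrp1def and N tumour Tregs. That lay below the value of every pair within a group that was not joined. The ds2 libraries held 2945638 to 5408375 counts, and the parts of batch and depth in this were not tested. Separate animals are not stated for the replicates, and the p-values therefore rest on a spread between samples that may be technical.

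The libraries held 2945638 to 35787148 counts (median 10248080). Levels are given as CPM, the read count of a gene scaled to a common library size, with library sizes adjusted by the trimmed mean of M values (TMM). The deficient sets still held Nrp1 reads. Nrp1 averaged 154 ± 21.6 CPM in N and 154 ± 71.2 CPM in HetNrp1def tumour Tregs, against 155 ± 59.3 CPM in HetWT and 171 ± 78.9 CPM in WT tumour Tregs (SD). In lymph nodes it averaged 211 ± 75.5 CPM in N and 197 ± 96.4 CPM in HetNrp1def Tregs, against 583 ± 573 CPM in HetWT and 360 ± 64.2 CPM in WT Tregs. With the deleted exons unknown, whole-gene counts do not check the genotype labels.

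The cells labelled effector T cells were checked against marker lists. Cd4, the helper T cell co-receptor, lay between 327 and 1463 CPM in them, and Cd8a, the cytotoxic T cell co-receptor, between 0 and 16.7 CPM. Foxp3, the transcription factor that defines Tregs, reached at most 1.62 CPM in effector T cells, against 5.99 to 42.6 CPM in WT tumour Tregs. Lymph node Tregs overlapped effector T cells in Foxp3: WT samples 2, 3, 4, ds1 and ds2 held 5.44, 0.573, 0, 0.951 and 57.4 CPM, and N sample ds1 held 0.116 CPM. A list of 18 Treg identity genes, summed, did not overlap, at 345 to 573 CPM in effector T cells and 3886 to 6202 CPM in WT lymph node Tregs. A list of 18 naive and memory T cell genes summed to between 7536 and 14328 CPM in effector T cells, against 1393 to 1718 CPM in WT tumour Tregs, and 15 of the 18 were higher in effector T cells at an edgeR adjusted p below 0.05. A list of 18 effector genes summed to between 359 and 781 CPM in effector T cells, against 5371 to 9324 CPM in WT tumour Tregs, and 11 of the 18 were lower in effector T cells. Gzmb, the cytotoxic granule protease, averaged 0.294 ± 0.361 CPM in effector T cells and 1200 ± 542 CPM in WT tumour Tregs (SD, n = 5 each). The samples thus carried the label effector beside high naive and memory genes and low effector genes, and the plot of the marker lists shows both.

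**Figure D1:**
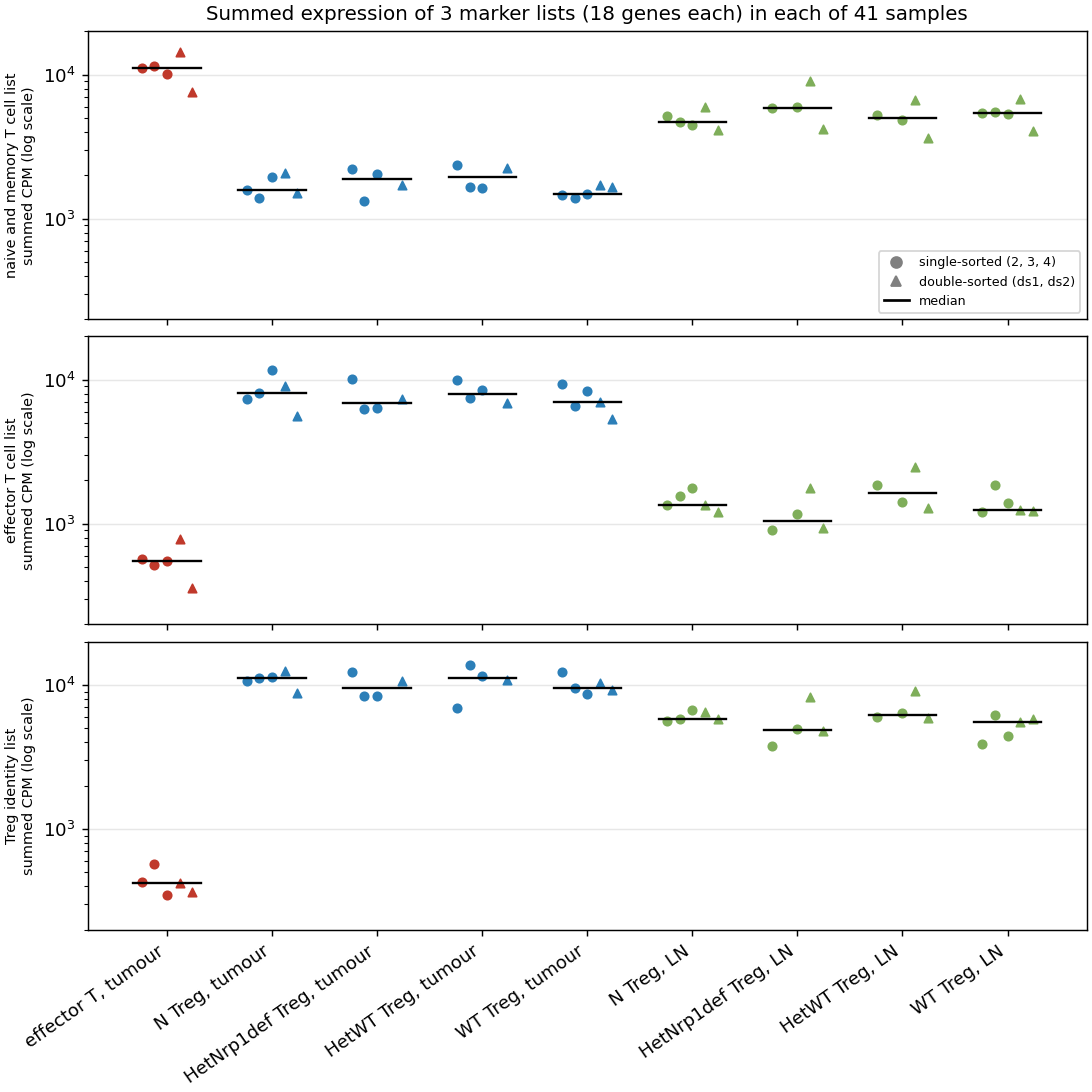
Summed expression of 3 lists of 18 marker genes (naive and memory T cell, effector T cell, Treg identity) in each of 41 samples, in CPM on a log axis; circles are single-sorted and triangles double-sorted samples, and black lines are group medians. Sample 4 of the HetNrp1def and HetWT tumour groups, drawn as a circle, also holds double-sorted reads. The 5 effector T cell samples lay between 7536 and 14328 CPM for the naive and memory list and between 345 and 573 CPM for the Treg list.

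Promoter sequences were set beside those of all promoters in the same table. The RefSeq promoter table (GRCm38.p6, 250 bases before to 50 after the start) held 3 of the 5 genes, and Lypd6b and Ggt5 had no entry. Each is printed 5′ to 3′ on the gene's own strand, and capitals mark matches to the short motifs described after them.

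Adh1, chr3:138277335-138277634, + strand: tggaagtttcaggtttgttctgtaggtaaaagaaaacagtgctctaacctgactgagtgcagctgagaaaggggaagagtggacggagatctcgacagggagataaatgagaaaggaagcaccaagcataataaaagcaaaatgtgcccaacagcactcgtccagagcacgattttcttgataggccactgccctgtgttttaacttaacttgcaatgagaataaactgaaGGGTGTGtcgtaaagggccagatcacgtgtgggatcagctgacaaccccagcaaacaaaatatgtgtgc
Cnga1, chr5:72642703-72643002, - strand: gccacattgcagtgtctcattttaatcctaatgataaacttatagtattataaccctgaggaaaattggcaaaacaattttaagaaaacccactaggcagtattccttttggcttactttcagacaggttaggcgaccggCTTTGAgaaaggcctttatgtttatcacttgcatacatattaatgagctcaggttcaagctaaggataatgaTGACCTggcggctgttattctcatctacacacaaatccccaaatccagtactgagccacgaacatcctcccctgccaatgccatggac
Pdlim4, chr11:54068968-54069267, - strand: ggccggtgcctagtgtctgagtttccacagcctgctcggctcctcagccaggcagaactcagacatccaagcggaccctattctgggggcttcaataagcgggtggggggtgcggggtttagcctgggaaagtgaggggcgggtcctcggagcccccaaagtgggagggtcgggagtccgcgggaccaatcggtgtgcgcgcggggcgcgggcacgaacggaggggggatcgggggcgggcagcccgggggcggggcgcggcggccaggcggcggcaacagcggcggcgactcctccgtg

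The Pdlim4 promoter was 71.7% G and C with 31 CpG dinucleotides, against a median of 52.7% and 7.0 over 32851 promoters of the same length. The Adh1 and Cnga1 promoters lay below both medians, with 45.3% and 6 CpG for Adh1 and 41.3% and 4 CpG for Cnga1. On both strands, 10 motifs were searched. The TCF/LEF motif CTTTGA was present in 16.0% of all promoters, and the forkhead motif GTAAACA in 3.6% of them. The RUNX motif TGTGGTT was present in 5.3% of promoters, the KLF motif GGGTGTG in 8.0% of them, and the ETS motif CCGGAAG in 8.9% of them. The STAT motif TTCNNNGAA was present in 8.3% of promoters, the AP-1 motif TGANTCA in 7.8% of them, and the E-box CAGGTG in 20.2% of them. The nuclear receptor motif AGGTCA was present in 16.3% of promoters and the TATA motif TATAAA in 13.6% of them. Adh1 held a KLF match from -19 to -13 relative to the start. Cnga1 held a TCF/LEF match from -110 to -105 and a nuclear receptor match on the opposite strand from -38 to -33. Pdlim4 held none of the 10. No motif was shared by any 2 of the 3 promoters, and no 2 of the matches overlapped. With each motif present in 3.6% to 20.2% of all promoters, matches this few and unshared do not set these 3 apart.

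In the GENCODE vM21 annotation of mm10, the build the authors used, the 5 genes lie on 5 chromosomes. Adh1 spans chr3:138260991-138290698 and begins upstream of the RefSeq start above, Lypd6b spans chr2:49787688-49948849, and Ggt5 spans chr10:75589340-75617200, all on the + strand. Pdlim4 spans chr11:54054928-54069014 and Cnga1 spans chr5:72603696-72644275, both on the - strand. Counts are over the exons of the whole gene. Of the 50-base stretches of Adh1 transcripts, 2.11% also occur in other genes (Adh6-ps1 and Gm16559), against 0.16% for Cnga1 and none for the other 3 genes. Because no strand setting is given, reads from the antisense gene Gm16559 and from Adh1 cannot be told apart, and transcripts also overlap Lypd6b, Ggt5 and Cnga1.

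All 5 genes passed the filter on low counts, in the 36 Treg samples alone as well as in all 41, so 5 of 5 are described against the 14668 genes tested. In effector T cells their summed level ran from 247 to 364 CPM, with a median of 270 CPM. The sum ran to at most 8.06 CPM in tumour Tregs (median 2.29 CPM, 18 samples) and to at most 87.8 CPM in lymph node Tregs (median 17.7 CPM, 18 samples). All 5 genes had their highest group mean in effector T cells, as did 15.1% of all genes, which the choice of the genes favours. Per kilobase of exon, the effector T cell level was highest for Pdlim4 (39.7 ± 10.8 CPM per kb), then Lypd6b (22.2 ± 13.0), Ggt5 (13.1 ± 6.36), Adh1 (9.93 ± 7.41) and Cnga1 (4.78 ± 5.27; SD, n = 5). The sample values of neighbours in this order overlapped. In bulk samples, fewer cells that express a gene and less of its RNA in each cell cannot be told apart.

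**Figure D2:**
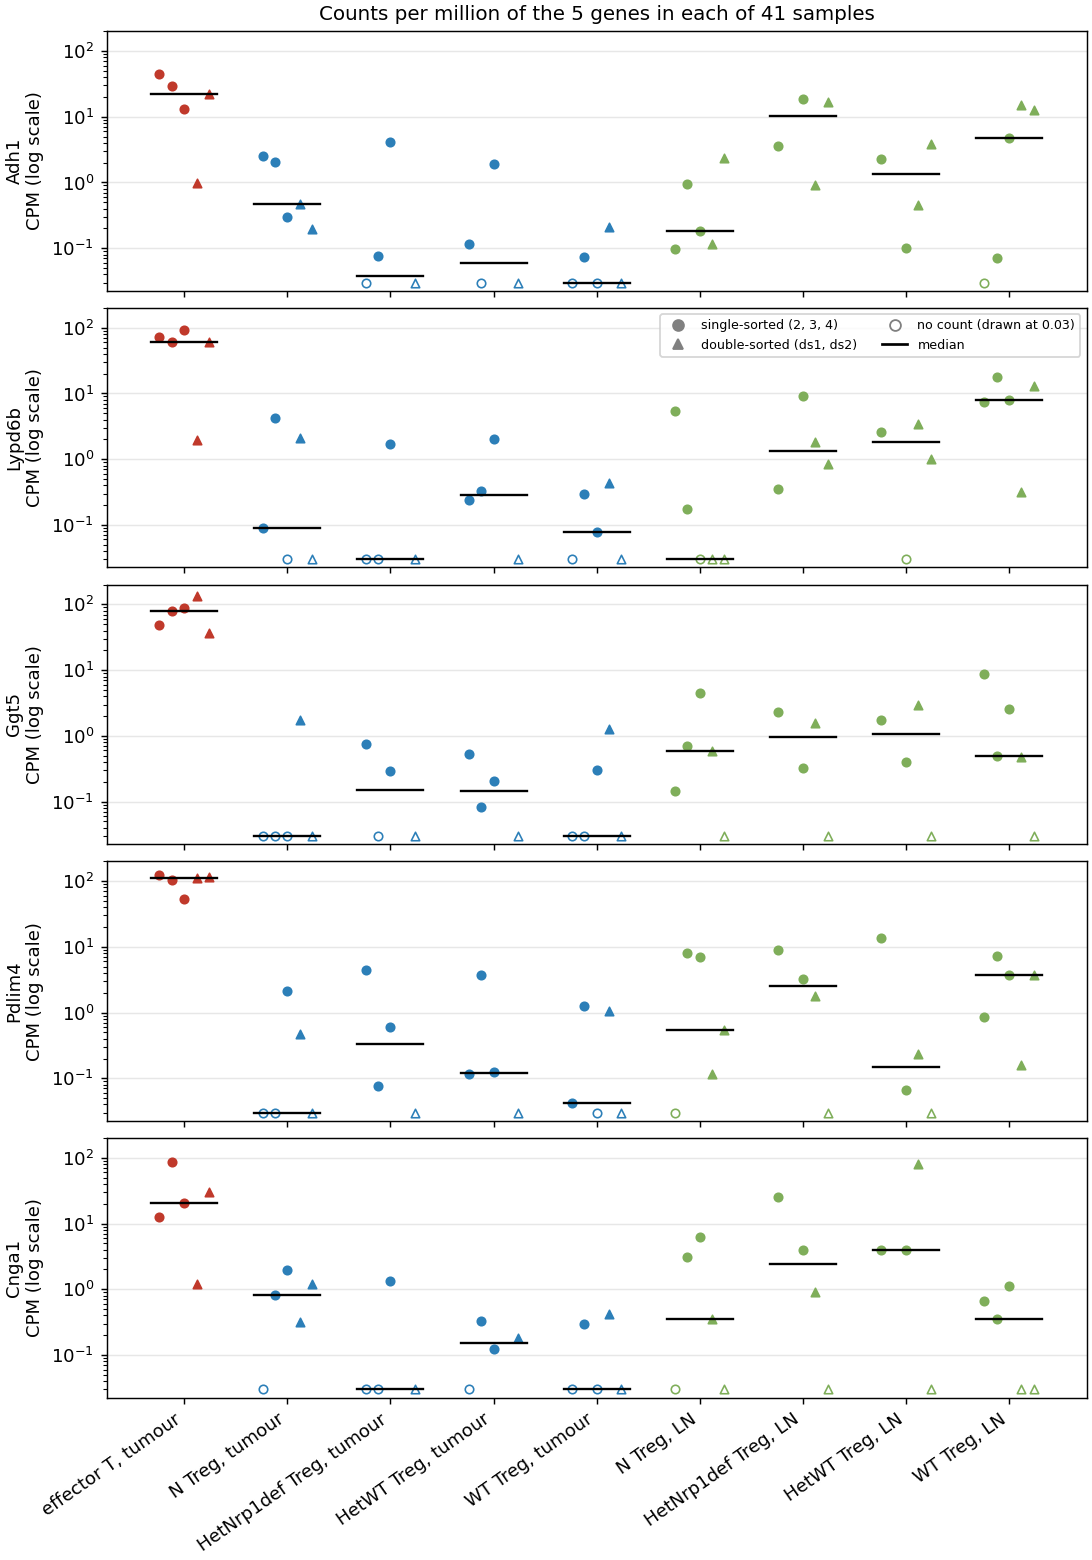
Level of each of the 5 genes in 41 samples, in CPM on a log axis; circles are single-sorted and triangles double-sorted samples, open symbols have no count and are drawn at 0.03, and black lines are group medians. Sample 4 of the HetNrp1def and HetWT tumour groups, drawn as a circle, also holds double-sorted reads. For Ggt5 and Pdlim4 every effector T cell sample lay above every Treg sample. For Adh1, Lypd6b and Cnga1 the effector T cell sample ds1, at 0.972, 1.94 and 1.19 CPM, lay among the Treg samples.

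Pdlim4, the cytoskeletal adaptor, was the most even of the 5 in effector T cells. It measured 123, 106, 53.4, 110.2 and 116 CPM in effector T cell samples 2, 3, 4, ds1 and ds2, against 0.0423, 1.26, 0, 1.07 and 0 CPM in the WT tumour Treg samples of the same numbers. In WT lymph node Tregs it measured 0.870, 7.31, 3.78, 0.159 and 3.71 CPM. No effector T cell sample overlapped any Treg sample of the 8 groups, and the highest of those, HetWT lymph node sample 2, stood at 13.9 CPM. The fitted log2 fold change of effector T cells was 7.72 (SE 1.95) over WT tumour Tregs and 4.99 (SE 1.71) over WT lymph node Tregs. Over the other 3 tumour Treg groups it ran from 6.31 to 7.62, and over the other 3 lymph node groups from 4.81 to 5.01. It was 8.98 over WT tumour Tregs without their sample 3, and 5.60 over WT lymph node Tregs without theirs.

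Ggt5, the leukotriene-converting enzyme, was likewise separate from every Treg sample. It measured 49.3, 80.3, 89.0, 133 and 36.3 CPM in effector T cell samples 2, 3, 4, ds1 and ds2, against 0, 0, 0.307, 1.28 and 0 CPM in WT tumour Tregs. WT lymph node Tregs held 8.81, 0.502, 2.55, 0.476 and 0 CPM, and their sample 2 was the highest of the 36 Treg samples. Its effector T cell values spread over a wide range, with ds1 the highest. The log2 fold change of effector T cells was 8.11 (SE 1.84) over WT tumour Tregs and 4.96 (SE 1.57) over WT lymph node Tregs. Over the other tumour groups it ran from 7.90 to 8.42, and over the other lymph node groups from 5.93 to 6.18. Without sample ds1 of WT tumour Tregs the first value was 9.84, and without sample 2 of WT lymph node Tregs the second was 6.43. Of all 14668 genes, 23 (0.157%) lay in effector T cells above every Treg sample of the 8 groups. Ggt5 and Pdlim4 were 2 of those 23, but the groups that chose them set part of that count.

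Lypd6b, the Ly6/uPAR family protein, was high in 4 of 5 effector T cell samples. It measured 71.1, 61.2, 93.6, 1.94 and 61.5 CPM in effector T cell samples 2, 3, 4, ds1 and ds2, against 0, 0.296, 0.0768, 0.427 and 0 CPM in WT tumour Tregs. In WT lymph node Tregs it measured 7.40, 18.1, 7.86, 0.317 and 13.1 CPM, so 4 of those 5 samples lay above effector T cell sample ds1. Of the lymph node Tregs, 8 of 18 samples lay above the lowest effector T cell sample and none above the effector T cell median, and of the tumour Tregs 3 of 18 lay above the lowest. The log2 fold change of effector T cells was 8.49 (SE 1.98) over WT tumour Tregs and 2.63 (SE 1.49) over WT lymph node Tregs. Over N, HetNrp1def and HetWT lymph node Tregs it was 5.66, 4.23 and 5.04. Leaving out sample 3 of WT tumour Tregs gave 9.28 for the comparison with that group.

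Adh1, the retinol-oxidising enzyme, had 3 counts in the 5 WT tumour Treg samples together. It measured 44.8, 29.8, 13.3, 0.972 and 22.02 CPM in effector T cell samples 2, 3, 4, ds1 and ds2, against 0, 0.0739, 0, 0.213 and 0 CPM in WT tumour Tregs. The ratio of summed counts, 2048 against 3 and scaled for depth, was 729, with an exact 95% interval of 249 to 3539.5 that covers counting error only and is given as a description, since this contrast chose the gene. Effector T cell sample 2 supplied 1447 of the 2048 counts, and the ratio was 406 without it. Without WT tumour sample 3, which held 2 of the 3 counts, it was 1379. The fitted log2 fold change was 8.66 (SE 2.04), and 9.38 without WT tumour sample ds1. In WT lymph node Tregs, Adh1 measured 0, 0.0717, 4.69, 15.1 and 12.5 CPM. HetNrp1def lymph node Tregs reached 16.9 and 18.6 CPM in samples ds2 and 4, above effector T cell sample 4. Of the lymph node Tregs, 9 of 18 samples lay above the lowest effector T cell sample, as did 4 of 18 tumour Treg samples, and none of either lay above the effector T cell median. The log2 fold change of effector T cells was 1.78 (SE 1.45) over WT and 1.14 (SE 1.53) over HetNrp1def lymph node Tregs, against 4.93 (SE 1.67) over N and 3.75 (SE 1.73) over HetWT lymph node Tregs.

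Cnga1, the rod channel subunit, varied most within effector T cells relative to its mean, at 12.7, 86.7, 20.2, 1.19 and 30.3 CPM in samples 2, 3, 4, ds1 and ds2. WT tumour Tregs held 0, 0.296, 0, 0.427 and 0 CPM, and WT lymph node Tregs held 0.653, 0.358, 1.12, 0 and 0 CPM. Both WT groups lay below every effector T cell sample. Of all 18 lymph node Treg samples, 7 lay above the lowest effector T cell sample and 2 above the effector T cell median. HetWT lymph node sample ds1 stood at 80.7 CPM and HetNrp1def lymph node sample 2 at 25.2 CPM, and the median was 20.2 CPM. The log2 fold change of effector T cells was 7.71 (SE 2.01) over WT tumour and 6.08 (SE 1.85) over WT lymph node Tregs, against 0.45 (SE 1.57) over HetWT lymph node Tregs. Without effector T cell sample 3 it was 6.79 over WT tumour and 5.18 over WT lymph node Tregs. It was 8.74 without WT tumour sample 3, and 6.91 without WT lymph node sample 4.

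Sample by sample, effector T cells therefore lay above all Tregs for 2 of the 5 genes, Ggt5 and Pdlim4. The effector T cell values that chose the genes enter this comparison. No other T cells than these and Tregs were sequenced, so restriction to effector T cells was not tested. Against WT tumour Tregs alone, 5 of 5 genes had no overlap, as had 2.88% of all genes, a count that the choice of the genes fixes. Against WT lymph node Tregs, 3 of 5 (Ggt5, Pdlim4 and Cnga1) had none, as had 0.811% of all genes, and the effector T cell values that chose the genes enter that count too. At a level of 1 CPM or more, 4 effector T cell samples held all 5 genes and 1 held 4 of them. Of the 18 lymph node Treg samples, 2 held all 5 genes, 2 held 4 and 1 held none. The 2 with all 5 were HetWT sample 2, with Foxp3 at 2.60 CPM, and WT sample 4, with Foxp3 at 0 CPM. The 1 with none was N sample ds1, with Foxp3 at 0.116 CPM. Low Foxp3 thus occurred with all 5 genes and with none of them. Of the 18 tumour Treg samples, 1 held 3 genes, which was the most, and 7 held none. In the order of the 9 group means, 8 of 8 neighbouring pairs of groups overlapped in sample values for Adh1, Lypd6b and Cnga1, and 7 of 8 for Ggt5 and Pdlim4, whose one separate pair was effector T cells and the next group. Effector T cell sample ds1, low for 3 genes and highest for Ggt5, had 21237 genes with a count, the most of the 41 samples, and a TMM factor of 0.686. Its part in those values was not tested, and without it the fold changes over WT tumour and WT lymph node Tregs moved by at most 0.34 on the log2 scale.

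The fold changes of effector T cells over WT tumour Tregs (median of the 5 genes 8.11, against -0.07 over all genes) and over WT lymph node Tregs (4.96, against 0.05) are given without a test, since those samples chose the genes. At an edgeR adjusted p below 0.05, 5.71% of all genes differed between effector T cells and WT tumour Tregs and 1.61% were higher in effector T cells. Against WT lymph node Tregs the shares were 1.79% and 0.102%. Markers of other cells moved with the first comparison. A list of 9 endothelial genes summed to between 81.2 and 236 CPM in effector T cells, against 13.6 to 71.1 CPM in WT tumour Tregs. Of its 6 genes tested, edgeR called 1 (Pecam1) higher in effector T cells and 0 lower. The median log2 fold change of the 6 was -0.81, so the higher sum did not hold across the list. A list of 9 dendritic cell genes summed to between 6.05 and 81.5 CPM in effector T cells, against 89.7 to 595 CPM in WT tumour Tregs, and 2 were lower in effector T cells. A list of 12 melanoma genes summed to between 4.47 and 104 CPM in effector T cells, against 6.79 to 4103 CPM in WT tumour Tregs, and 4 of 11 tested were lower. No gene of these 3 lists was at 0 in either group, and their part in the fold changes was not tested. Between WT tumour and WT lymph node Tregs the log2 fold changes were -6.88 for Adh1, -5.86 for Lypd6b, -3.14 for Ggt5, -2.72 for Pdlim4 and -1.62 for Cnga1, also a description. Leaving out 1 sample moved Ggt5 to between -4.87 (without WT tumour sample ds1) and -1.68 (without WT lymph node sample 2). Pdlim4 moved to -3.93 without WT tumour sample 3 and to -2.11 without WT lymph node sample 3. Cnga1 moved to -2.59 and -0.94 without WT tumour sample 3 and WT lymph node sample 4, Adh1 to -7.60 without WT tumour sample ds1, and Lypd6b to -6.54 without WT tumour sample 3.

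Tregs of the other 3 genotype sets took no part in choosing the genes, and there the tissues can be compared with a test. Over the mean of N, HetNrp1def and HetWT, 1 of the 5 genes, Cnga1, was lower in tumour than in lymph node Tregs. Of all genes, 3.34% were lower and 7.15% changed in either direction by the same edgeR test. Cnga1 measured 0, 0.827, 2.00, 0.318 and 1.18 CPM in N tumour samples 2, 3, 4, ds1 and ds2, against 0, 3.11, 6.17, 0.349 and 0 CPM in N lymph node Tregs. HetNrp1def tumour samples 2, 3, 4 and ds2 held 0, 0, 1.34 and 0 CPM, against 25.2, 3.89, 0.901 and 0 CPM in HetNrp1def lymph node samples 2, 4, ds1 and ds2. HetWT tumour samples 2, 3, 4 and ds2 held 0, 0.330, 0.125 and 0.183 CPM, against 3.91, 3.98, 80.7 and 0 CPM in HetWT lymph node samples 2, 4, ds1 and ds2. The tissues overlapped in each genotype set, and each lymph node group had a sample with no count. The log2 fold change of tumour over lymph node Tregs was -4.18 (SE 1.06, edgeR quasi-likelihood adjusted p = 0.00760).

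The Cnga1 difference passed the threshold in each of 26 fits that left out 1 sample, with log2 fold changes from -5.83 (without HetNrp1def tumour sample 4) to -3.15 (without HetWT lymph node sample ds1, edgeR adjusted p = 0.0483). Without HetNrp1def lymph node sample 2 it was -3.26 (edgeR adjusted p = 0.0444). In single-sorted samples it was -3.77 (edgeR adjusted p = 0.0330). That fit held the joined sample 4 of the HetNrp1def and HetWT tumour groups, part of whose reads came from double-sorted library ds1. In double-sorted samples it was -3.23, where those groups held 1 sample each, so no p-value is given. On the authors' log2 values of all 45 libraries, with the near-identical pairs not joined, it was -1.84 and did not pass the threshold (limma adjusted p = 0.0937). HetWT lymph node sample ds1 had 20055 genes with a count and a TMM factor of 0.705.

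The other 4 genes did not pass the test in that comparison. At an unadjusted edgeR p below 0.05, 3 of the 5 genes passed (Cnga1, Ggt5 and Pdlim4), beside 2823 of the 14668 genes tested. Ggt5 had a log2 fold change of -2.10 (SE 0.90, edgeR adjusted p = 0.168), and Pdlim4 one of -1.95 (SE 0.94, adjusted p = 0.242). Adh1 stood at -1.40 (SE 0.91, adjusted p = 0.431) and Lypd6b at -1.30 (SE 0.90, adjusted p = 0.473). All 5 values were below 0, with a median of -1.95 against -0.12 over all genes. Ggt5 passed the threshold in single-sorted samples (-4.04, edgeR adjusted p = 0.0136), and when N tumour sample ds1 was left out (-3.85, adjusted p = 0.00841). Lypd6b stood at 0.05 without N lymph node sample 2. Pdlim4 stood at -0.16 without HetWT lymph node sample 2, and at -3.12, -2.73 and -2.76 without HetWT tumour sample 3, HetNrp1def tumour sample 2 and N tumour sample 4. Adh1 stood at -2.89 without HetNrp1def tumour sample 4 and at -2.50 without HetWT tumour sample 4.

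Within each genotype set, edgeR called none of the 5 genes between tissues, beside 0.791% of all genes in N, 0.654% in HetNrp1def and 0.239% in HetWT. At an unadjusted p below 0.05 the counts were 0 in N, 1 in HetNrp1def and 1 in HetWT, Cnga1 in both. Of the 14668 genes tested, 1394, 1662 and 1191 passed the same threshold in these sets. DESeq2 called 0, 0 and 1 of the 5, beside 389, 833 and 262 of all genes. Limma on the authors' log2 values called none, beside 275, 102 and 191 of all genes. Cnga1 had log2 fold changes of -1.17 (SE 1.52) in N, -4.34 (SE 1.89) in HetNrp1def and -7.03 (SE 2.16) in HetWT. Leaving out 1 sample moved it in N to between -1.76 (without tumour sample 4) and -0.055 (without lymph node sample 4). In HetNrp1def it moved to between -9.77 (without tumour sample 4) and -2.09 (without lymph node sample 2). In HetWT it moved to -3.96 without lymph node sample ds1, to -6.05 without tumour sample 2 and to -6.36 without tumour sample 4. The difference between the HetNrp1def and HetWT tissue effects was 2.70 (SE 2.42) and did not pass the edgeR test. For that difference edgeR called 0% of all genes, with 571 at an unadjusted p below 0.05, while DESeq2 called 29.

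Markers of other cells moved with the tissue. Of 9 B cell genes, 6 were lower in tumour Tregs in the same edgeR comparison, and the list summed to between 5.88 and 73.1 CPM in the tumour Tregs of N, HetNrp1def and HetWT, against 40.8 to 600.3 CPM in their lymph node Tregs. In HetWT tumour Tregs 1 of the 9 had no count. Of 11 melanoma genes tested, 8 were higher in tumour Tregs, and the list of 12 summed to between 6.36 and 2333 CPM there, against 8.39 to 73.0 CPM in lymph node Tregs, where 1 of the 12 in N and 2 in HetNrp1def had no count. Of the 18 naive and memory genes, 15 were lower in tumour Tregs, where they summed to between 1328 and 2340 CPM, against 3639 to 9083 CPM in lymph node Tregs. Of the 18 effector genes, 14 were higher in tumour Tregs, where they summed to between 5622 and 11753 CPM, against 906 to 2462 CPM in lymph node Tregs. Of 14 macrophage genes, 4 were higher in tumour Tregs (5.66 to 335 CPM in sum, against 7.45 to 225 CPM in lymph node Tregs, where 1 had no count in HetNrp1def). Of 9 dendritic cell genes, 2 were higher in tumour Tregs (68.3 to 586 CPM in sum, against 22.6 to 262 CPM in lymph node Tregs). The part of these lists in the Cnga1 difference was not tested.

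The Nrp1-deficient sets were compared with Nrp1-sufficient ones in the same way. EdgeR called none of the 5 genes and 0% of all genes in HetNrp1def against HetWT Tregs of tumours, in HetNrp1def against HetWT Tregs of lymph nodes, or in N against WT Tregs of lymph nodes. At an unadjusted p below 0.05 the counts of the 5 were 0, 0 and 1 (Adh1), and DESeq2, the fit with a replicate block and limma on the authors' values each called 0. The edgeR p-values and SEs given here come from the fit with no term for replicate number. Same-numbered HetNrp1def and HetWT lymph node samples varied together, with r of at least 0.143 over 4 pairs. With the replicate block, 0 of all genes were called in that comparison. In tumours the log2 fold changes of HetNrp1def over HetWT Tregs lay between -0.52 (Lypd6b) and 1.15 (Cnga1), with SEs from 1.59 to 1.73. In lymph nodes they lay between -1.55 (Cnga1) and 2.60 (Adh1, SE 1.68). For N over WT Tregs of lymph nodes the lowest was Adh1, at -3.15 (SE 1.55), with a mean of 0.737 ± 0.963 CPM in N and 6.47 ± 7.003 CPM in WT (SD, n = 5 each). Lypd6b followed at -3.04 (SE 1.52), with 1.10 ± 2.37 CPM in N and 9.35 ± 6.67 CPM in WT. Log2 fold changes as large as those of Adh1 (-3.15) and Lypd6b (-3.04) did not pass the edgeR test. At this depth and spread, differences of that size could go undetected. Of all genes, 291, 952 and 616 had an unadjusted p below 0.05 in these 3 comparisons, and DESeq2 called 8, 318 and 19.

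**Figure D3:**
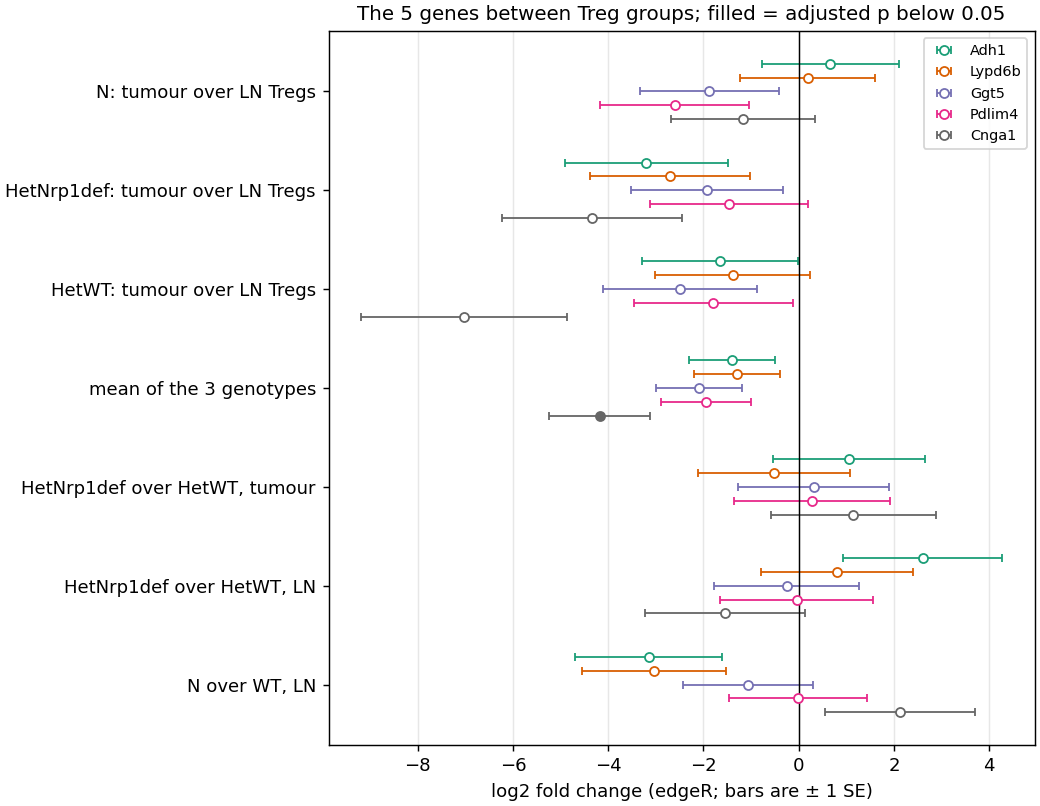
Log2 fold changes of the 5 genes between Treg groups that took no part in choosing them (WT lymph node Tregs apart), with bars of 1 SE from edgeR; filled points have an adjusted p below 0.05. The one filled point is Cnga1 in the mean of the 3 genotype sets, at -4.18, and all 5 genes lie below 0 in that comparison.

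The other genes of each pathway were compared between the same groups. Of 20 other retinol and alcohol dehydrogenase genes tested, none was called between effector T cells and WT tumour Tregs, with a median log2 fold change of -0.56. Adh7 and Adh6a, the neighbours of Adh1 in the alcohol dehydrogenase cluster, averaged 0.389 ± 0.869 and 0.281 ± 0.568 CPM in effector T cells, against 1.12 ± 2.22 and 0.199 ± 0.253 CPM in WT tumour Tregs. Of 24 other cyclic nucleotide-gated channel and cGMP genes, none was called either, with a median of -0.46. Nipal1, which lies 3520 bases from Cnga1, averaged 12.2 ± 11.1 CPM in effector T cells and 4.35 ± 3.73 CPM in WT tumour Tregs.

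Among 25 other gamma-glutamyl, glutathione and leukotriene genes, edgeR called 2, both lower in effector T cells and both leukotriene receptors. Cysltr2, a receptor of cysteinyl leukotrienes, averaged 0.305 ± 0.615 CPM in effector T cells and 52.3 ± 46.2 CPM in WT tumour Tregs (log2 fold change -7.38, SE 1.84, adjusted p = 0.00786). Ltb4r1, a leukotriene B4 receptor, averaged 0.0933 ± 0.134 CPM in effector T cells and 9.36 ± 7.86 CPM in WT tumour Tregs (-6.48, SE 1.73, adjusted p = 0.0125). Ggt1, the paralog 3140 bases from Ggt5 on the same strand, averaged 11.01 ± 11.1 CPM in effector T cells, 4.01 ± 8.73 CPM in WT tumour Tregs and 8.09 ± 17.6 CPM in WT lymph node Tregs. All 3 of these averages lay within their spread.

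Of 12 other Ly6 and uPAR family genes, edgeR called 1 higher and 4 lower in effector T cells. Ly6c1, a Ly6C surface antigen, averaged 207 ± 58.5 CPM in effector T cells and 17.9 ± 17.1 CPM in WT tumour Tregs (log2 fold change 3.52, SE 0.69, adjusted p = 0.000345). Ly6a, the surface protein Sca-1, averaged 480 ± 193 CPM in effector T cells and 2440 ± 569 CPM in WT tumour Tregs (-2.35, SE 0.31). Cd59a, an inhibitor of complement, had a log2 fold change of -6.06 (SE 1.82) and Ly6c2 one of -4.24 (SE 1.17), and Ly6e stood at -1.09 (SE 0.24). Ly6c1 and Ly6c2 are close paralogs, so how their reads were divided is uncertain. Lypd6, the paralog nearest to Lypd6b, averaged 0.329 ± 0.519 CPM in effector T cells and 0.570 ± 1.23 CPM in WT tumour Tregs.

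Of 26 other PDZ, LIM and actinin genes, 3 were higher and 3 lower in effector T cells. The higher ones included Actn1, an alpha-actinin, at 1058 ± 625 CPM in effector T cells and 36.1 ± 25.3 CPM in WT tumour Tregs (log2 fold change 4.87, SE 0.87, edgeR adjusted p = 0.000185), and Pdlim1, a paralog of Pdlim4, at 232 ± 122 CPM in effector T cells and 23.9 ± 16.0 CPM in WT tumour Tregs (3.28, SE 0.70, adjusted p = 0.00109). The third was Limd2, a LIM domain protein (1.32, SE 0.29). The lower ones were the LIM proteins Fhl2 (-5.59, SE 1.69) and Csrp2 (-5.57, SE 1.55) and the PDZ-containing phosphatase Ptpn13 (-4.29, SE 0.98). Actn1 is also on the naive and memory list. Over WT lymph node Tregs, 2 genes of the 5 lists were called, Ptpn13 (-4.52, SE 0.99) and Ly6e (-0.85, SE 0.24), both lower in effector T cells.

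Between tumour and lymph node Tregs of N, HetNrp1def and HetWT, the same 3 PDZ-LIM list genes were lower in tumour: Actn1 (log2 fold change -2.69, SE 0.49), Pdlim1 (-1.89, SE 0.41) and Limd2 (-0.83, SE 0.18). Fhl2 was higher in tumour Tregs (3.99, SE 0.98). On the leukotriene list, Cysltr2 (4.79, SE 1.02) was higher in tumour Tregs. Over the 5 lists in that comparison, edgeR called 0 retinol, 5 Ly6, 3 leukotriene, 4 PDZ-LIM and 3 channel genes.

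**Figure D4:**
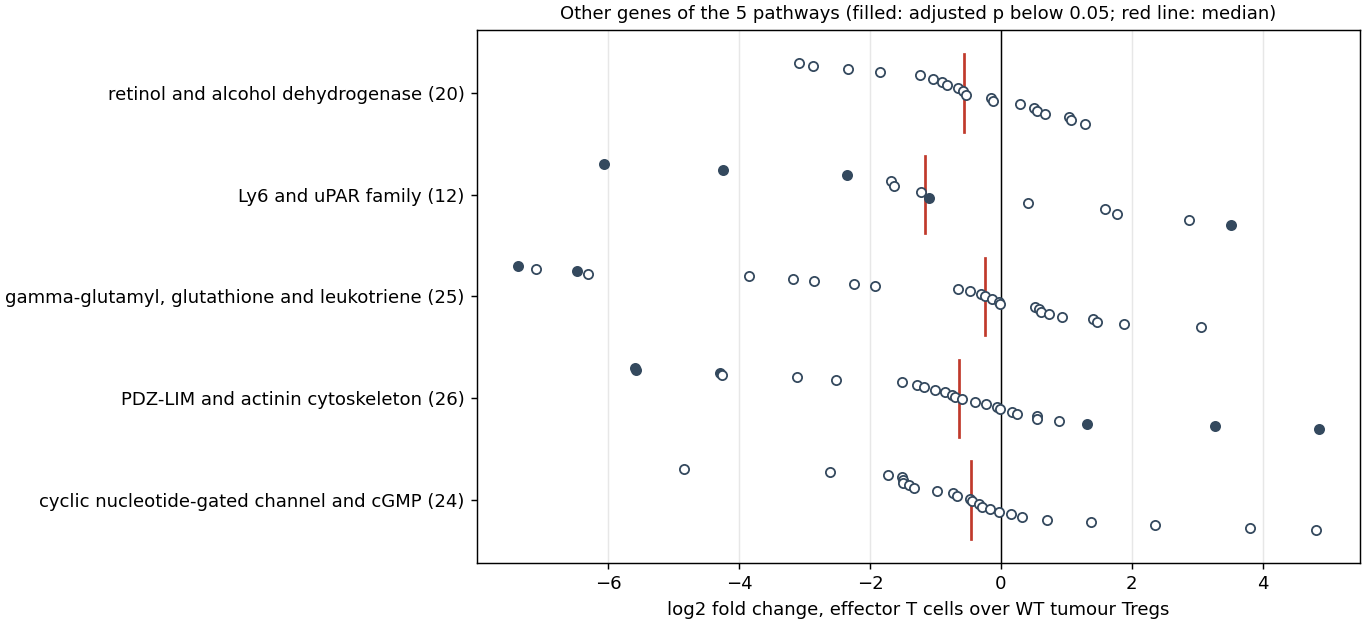
Log2 fold changes of effector T cells over WT tumour Tregs for the other genes of the 5 pathway lists, with the number tested in brackets; filled points have an edgeR adjusted p below 0.05 and red lines are medians. The medians lie between -1.16 and -0.24, and the 4 filled points above 0 are Ly6c1, Limd2, Pdlim1 and Actn1.

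Across all 41 samples the 5 genes varied together to different degrees. On log2 CPM, Pearson's r between pairs of them ran from 0.40 (Adh1 and Ggt5) to 0.80 (Ggt5 and Pdlim4), which the effector T cell samples and shared depth both enter. Slc16a5, a member of the monocarboxylate transporter family, was among the 3 most similar genes for 4 of the 5, with r = 0.85 for Ggt5, 0.83 for Pdlim4, 0.70 for Cnga1 and 0.65 for Lypd6b. Slc16a5 averaged 59.3 ± 20.3 CPM in effector T cells, 0.713 ± 0.885 CPM in WT tumour Tregs and 4.58 ± 7.11 CPM in WT lymph node Tregs. Ggt5 was next most like Lef1, a TCF/LEF family transcription factor (r = 0.79), and Tgfbr2, the type II TGF-beta receptor (r = 0.78). For Pdlim4 they were 2610019F03Rik (r = 0.74) and Dapl1 (r = 0.69), and for Cnga1 Tgfbr2 (r = 0.68) and Amz1 (r = 0.67). For Lypd6b they were Tspan9, a tetraspanin (r = 0.70), and G0s2, an inhibitor of triglyceride breakdown (r = 0.64), and for Adh1 Emid1 (r = 0.67), Gtf2i (r = 0.65) and G0s2 (r = 0.65). Lef1 and Dapl1 are also on the naive and memory list.

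The spread of these 5 genes between samples of a group was large. Their biological coefficients of variation in edgeR lay between 1.39 (Ggt5) and 1.55 (Cnga1), above the trend for genes of their level (1.05 to 1.36). Of all genes tested, 66.2% to 71.0% had a lower coefficient.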

How the data were processed

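Gene expression was measured by RNA sequencing in 45 libraries of sorted T cells. Per the labels' protocols, Tregs went through 1 or 2 rounds of sorting, SMARTer low-input amplification, Nextera XT preparation and NextSeq sequencing. The authors' deposited values are whole-number counts for each gene symbol, unnormalized. The tools STAR, featureCounts and limma and the build mm10 are named in the submitters' processing notes, with no version, annotation or strand setting given in the sources used here. The authors also deposited normalized, filtered log2 values, used only as an alternative.

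Members and gene lists were chosen with earlier results of these data known. The genes named are the 5, the 3 genes most correlated with each, the called genes of the pathway lists with the largest changes (up to 3 in each direction), cell type check genes and genome neighbours; Ly6e, Gzmb and Pecam1 were named after their values were seen. Library pairs of 1 group under a chi-square per degree of freedom of 5 were summed. The test on counts was that of edgeR 4.0.16, under R 4.3.3 (filterByExpr, TMM, robust quasi-likelihood fit of 9 groups, Benjamini-Hochberg over 14668 genes, threshold 0.05). SE is the log2 fold change divided by the root of F. A prior count of 2 was used for correlations. Alternatives were DESeq2 1.42.0, limma 3.58.1 on the deposited log2 values, no filter, all 45 libraries, a replicate block, each sorting batch alone and each sample left out. The limma fit used all 45 libraries with the 4 near-identical pairs not joined, so its p-values count more samples than the 41 of the main fit. The Adh1 count ratio without each sample was added after seeing the data. Scripts were tested on simulated counts. Same-numbered samples were taken as paired where r of their deviations from the group mean was above 0.1 in every pair. Only HetNrp1def against HetWT lymph node Tregs met that limit, with 4 pairs and r of at least 0.143. In HetNrp1def against HetWT tumour Tregs r was 0.081 to 0.413, and between N tissues 0.09998 to 0.334. Both were above 0 throughout, so the limit does not show those samples to be unpaired. Between HetWT tissues the lowest r was -0.032. The main fit held no term for replicate number. No column of other samples was found (0).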

Additional observations from a re-analysis of the deposited data

Results flagged for a closer look

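In 18 of 45 sets of values (1 gene in 1 group), the highest or the lowest sample stood far from the others by Dixon's test. Its rate of about 1 in 20 by chance holds for normally distributed values. These were CPM values with many zeros, and a set with a count in only 1 sample is flagged whatever its level. The number of flags therefore cannot be set against that rate. In 17 of the 18 sets the sample that stood apart was the highest. The exception was Pdlim4 in effector T cells, where sample 4 was lowest, at 53.4 CPM, with the nearest other at 105.6 CPM. Flags in tumour Tregs were on low values. HetNrp1def sample 4, a joined pair, was highest for Adh1 (4.12 CPM), Lypd6b (1.71 CPM) and Cnga1 (1.34 CPM), and HetWT sample 4, also a joined pair, for Adh1 (1.88 CPM) and Lypd6b (2.01 CPM). Ggt5 stood apart in sample ds1 of N (1.75 CPM) and of WT (1.28 CPM). Pdlim4 stood apart in N sample 4 (2.10 CPM), HetNrp1def sample 2 (4.38 CPM) and HetWT sample 3 (3.79 CPM).

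In lymph node Tregs, 7 sets stood apart. Cnga1 stood at 80.7 CPM in HetWT sample ds1, with the nearest other at 3.98 CPM, and at 25.2 CPM in HetNrp1def sample 2. Pdlim4 stood at 13.9 CPM in HetWT sample 2, with the nearest other at 0.230 CPM. Lypd6b was high in N sample 2 (5.34 CPM) and HetNrp1def sample 4 (9.14 CPM), and Ggt5 in N sample 4 (4.45 CPM) and WT sample 2 (8.81 CPM).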

How the results depend on the processing

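With all 41 samples, edgeR called 1 of the 5 genes (Cnga1) between tumour and lymph node Tregs over the mean of 3 genotype sets. Single-sorted samples gave 2, double-sorted samples 0, limma on the authors' log2 values 0, and fits without 1 sample 1 to 2. On the authors' values of all 45 libraries, with no pairs joined, Cnga1 was -1.84 (limma adjusted p = 0.0937), and limma called 1425 of all genes. With the replicate block Cnga1 was -4.57 (edgeR adjusted p = 0.0149), with 1 of the 5 genes called beside 1312 of all genes. DESeq2 called 1 gene within HetWT, Cnga1 (-7.58), against 0 by edgeR. Pathway genes called in effector T cells over WT tumour Tregs numbered 13, against 1 in double-sorted samples, 21 by DESeq2, 0 by limma and 10 to 14 without 1 sample. Over WT lymph node Tregs they numbered 2, against 1 with no filter, 0 in double-sorted samples, 6 by DESeq2, 1 by limma and 1 to 2 without 1 sample, where every effector T cell sample but ds1 and every WT lymph node sample but 2 took it to 1. Log2 fold changes of single genes that turned direction were these. In double-sorted samples, N tissue effects were -1.902 for Adh1, 1.22 for Ggt5 and 1.73 for Cnga1, WT tissue effects 0.93 for Ggt5 and 3.21 for Cnga1, and effector T cells over WT lymph node Tregs -0.38 for Adh1. In single-sorted samples Lypd6b was -0.34 in N. By limma on the authors' values, Lypd6b was 0.28 over the 3 sets, HetWT tissue effects were 0.55 for Adh1, 0.95 for Lypd6b and 1.59 for Pdlim4, Ggt5 was 0.00339 in HetNrp1def and 0.0275 in WT. Without 1 sample, Lypd6b ran from -3.17 to 0.0542 over the 3 sets and from -1.45 to 4.25 in N, and Pdlim4 from -5.20 to 3.69 in HetWT (3.69 without HetWT lymph node sample 2). Causes were not tested. In double-sorted fits the HetNrp1def and HetWT tumour groups held 1 sample each, assumed to vary like the others.

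Counts of all genes called moved by over 1.5 times as follows. Over the 3 sets, 1049 became 35 in double-sorted samples and 1688 by DESeq2. In N, 116 became 313 with the replicate block, 181 single-sorted, 3 double-sorted, 389 by DESeq2 and 275 by limma. In HetNrp1def, 96 became 59 with no filter, 277 with 45 libraries, 190 with the block, 0 double-sorted and 833 by DESeq2. In HetWT, 35 became 142 with 45 libraries, 93 with the block, 110 single-sorted, 1 double-sorted, 262 by DESeq2 and 191 by limma. For effector T cells, 838 over WT tumour Tregs became 1284 with the block, 51 double-sorted, 1620 by DESeq2 and 51 by limma, and 263 over WT lymph node Tregs became 20 and 616 in double-sorted samples and by DESeq2. Leaving out 1 sample took these counts as low as 55 in N (without N lymph node sample 2), 42 in HetNrp1def (without lymph node sample ds1) and 18 in HetWT (without tumour sample 4). The block changed no call of the 5 genes. Only HetNrp1def over HetWT lymph node Tregs met the limit set for pairing of same-numbered samples.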
